A study of Mus musculus with 18 samples.

Results

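The 10 genes described here belong to the Notch pathway, and they were picked by symbol from a table of 50689 features. They are the receptors Notch1, Notch2 and Notch3, the ligands Dll1, Jag1 and Jag2, the Hes and Hey family genes Hes1, Hes6 and Heyl, and the protease Adam17. All 10 symbols matched a mouse Ensembl identifier in the table. The data are counts of unique molecular identifiers (UMIs), tags that mark single RNA molecules, in 18 RNA libraries from proliferating satellite cells, which are stem cells that rebuild muscle. The cells came from the tibialis anterior of C57BL6 mice and grew on matrigel. The 9 scKO libraries have the genotype Pax7-CreERT2/+;Hoxa10f/f, and per the labels this group received 4-hydroxytamoxifen at 1 µM for 2 days, which activates the Cre in cells that use the Pax7 gene. The 9 control libraries have the genotype Hoxa10f/f, so floxed Hoxa10 is common to both groups, while Cre and the drug are stated for scKO only, so the effects of losing Hoxa10, of Cre and of the drug cannot be told apart. The labels do not say whether libraries of a group came from separate mice or cultures, so p-values measure only the spread between these libraries.

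Notch signalling passes between touching cells. A Delta-like or Jagged ligand on a neighbour binds the receptor, a protease of the Adam family and then gamma-secretase cut it, and the freed intracellular domain joins Rbpj and a Mastermind protein to switch on genes of the Hes and Hey families. In satellite cells this pathway is known for keeping stem cells quiescent and for holding back muscle differentiation, and it is known to be turned down when myoblasts differentiate.

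Depth split the libraries into 13 shallow ones (420197 to 968559 counts; 6 scKO and 7 control) and 5 deep ones (4346150 to 5986128 counts; 3 scKO and 2 control), set apart at 2000000 counts. scKO and control were compared inside each class. Hoxa10 itself had a mean of 3.03 CPM (counts scaled to a library total of 1000000) in shallow scKO libraries against 31.6 CPM in shallow controls, and of 10.7 CPM in deep scKO libraries against 51.9 CPM in deep controls. Among the shallow libraries, scKO 1 and control 7, 8 and 9 stood apart from the other 9 on the principal component that held 39.5% of the variance. Those 4 also had a higher summed level of 10 myogenic marker genes, 9961 to 10717 CPM against 6297 to 8507 CPM in the other 9. Of the 10 myogenic markers, at least 9 were detected in every library. Every library had at least 8 counts of Pax7 and 268 of Myod1, and Myf6 had 0 to 5 counts in shallow libraries. The summed myotube list (10 genes) was 15215 to 21266 CPM in shallow scKO and 13099 to 23057 CPM in shallow controls. In deep libraries it was 5470 to 5955 CPM in scKO and 4668 to 6348 CPM in control. Its counts were uneven between genes. Per shallow library Myh3 had 1791 to 3012 counts, Ckm 38 to 183 and Mymx 25 to 92. Markers of other cell types were also found. The summed fibro-adipogenic list (6 genes) was 34.1 to 83.5 CPM in shallow scKO and 56.8 to 122.7 CPM in shallow controls. In deep libraries it was 64.5 to 75.9 CPM in scKO against 55.2 to 65.3 CPM in controls. Pi16 was at 0 in all shallow libraries, while Ly6a had 14 to 79 counts per shallow library. The summed leukocyte list (6 genes) was at most 19.0 CPM in any library. The summed endothelial list (8 genes) was 8.97 to 46.4 CPM in shallow scKO and 8.50 to 58.5 CPM in shallow control libraries. Cldn5 was at 0 in all shallow libraries, while Cdh5 had 1 to 12 and Emcn 0 to 15 counts per shallow library. Per deep library Cdh5 had 21 to 46 counts, Emcn 28 to 90 and Cldn5 0 to 2. In deep libraries the endothelial sum was 21.4 to 29.0 CPM in scKO, against 47.0 CPM in control 1 and 14.2 CPM in control 2. The summed mural list (7 genes), which describes the cells around vessels where Notch3 is best known, was 74.8 to 166.9 CPM in shallow scKO and 64.8 to 163.2 CPM in shallow controls, and 337.5 to 358.1 CPM in deep scKO against 320.2 to 320.6 CPM in deep controls. Its counts were uneven between genes. Per deep library Rgs5 had 692 to 1095 counts, Abcc9 162 to 576, Pdgfrb 19 to 49 and Kcnj8 0 to 2. Per shallow library Rgs5 had 18 to 55 counts, Pdgfrb 0 to 3 and Kcnj8 0 to 1. The summed Schwann cell list (4 genes) was 14.5 to 73.2 CPM in shallow scKO and 34.2 to 141.7 CPM in shallow controls. The medians of the Schwann list were 38.5 CPM in shallow scKO and 128.4 CPM in shallow control libraries, and in deep libraries it was 44.0 to 64.1 CPM in scKO and 25.2 to 34.7 CPM in control, with Sox10 at 4 to 78 counts per shallow library. The part of these cell types in the results was not tested.

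Of the 10 genes, 1 passed the test. Notch2 fell in scKO within the deep libraries, and no member passed in the shallow libraries or over all 18 libraries with the depth class as a covariate. In the deep libraries edgeR called 14.3% of the 13136 genes tested (7.03% as lower in scKO), so 1 call among 10 members is no more than the share of all genes. In the shallow libraries, where 7 members passed the count filter, edgeR called 0 of them and 0.0434% of 6906 genes. With the depth class, 0 of 8 members and 0.679% of 7662 genes were called. At an unadjusted p under 0.05 edgeR found 1 member, Notch3, in the shallow libraries (beside 6.15% of all genes) and 1, again Notch3, with the depth class (beside 11.9%). In the deep libraries it found 2, Notch2 and Dll1 (beside 29.4%). DESeq2 and limma-voom called 0 members in the shallow libraries and with the depth class, and 1 in the deep libraries. Among the 8 members that could be tested (not Dll1 or Jag1), none had a change that differed between the depth classes past the threshold, where edgeR called 0% of 7662 genes (6.17% at an unadjusted p under 0.05) and DESeq2 called 60 genes. The members that passed the filter had a median log2 fold change of 0.37 in the shallow libraries (5 positive, 2 negative) and 0.01 in the deep ones (7 positive, 3 negative). Over all genes tested these medians were -0.02 in the shallow and -0.0017 in the deep libraries.

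**Figure D1:**
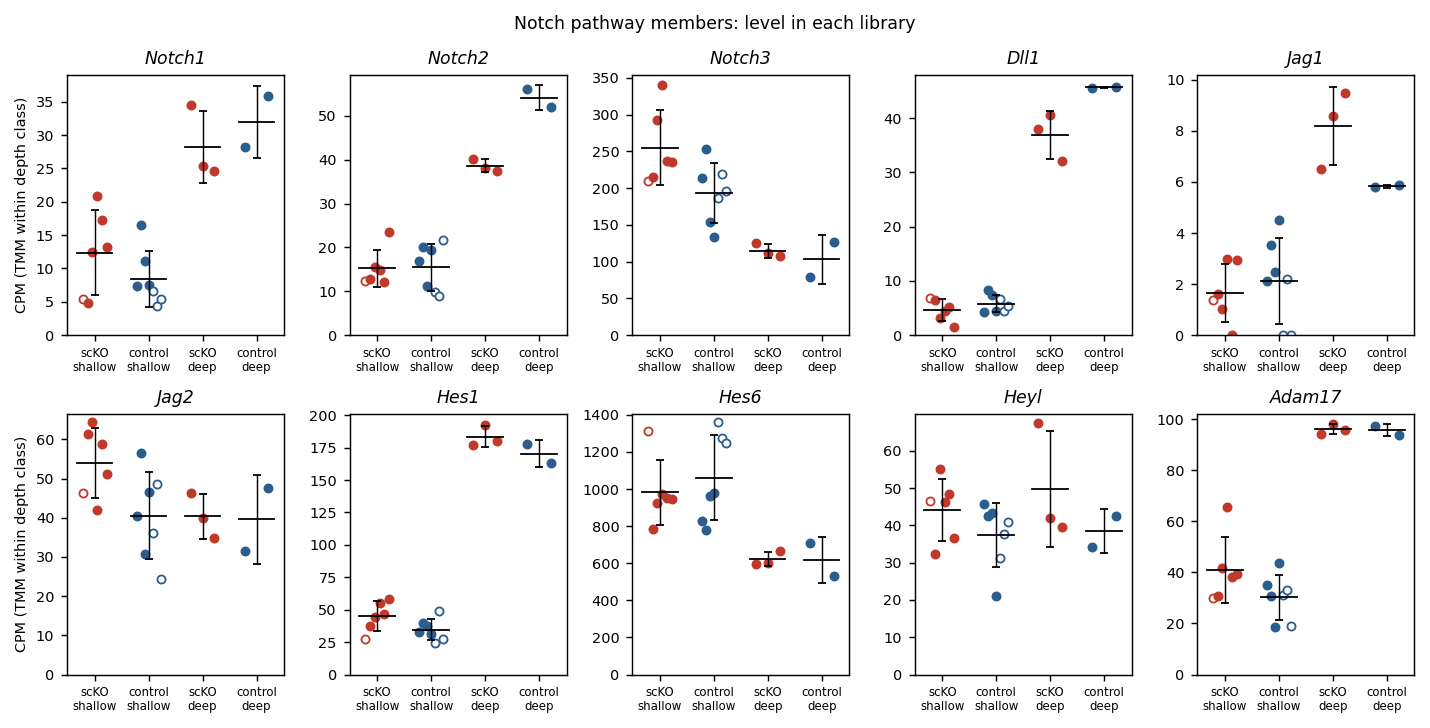
Level of each member in every library, in CPM scaled by TMM within each depth class, with scKO in red and control in blue, a line for the mean and bars for the SD; open points mark scKO 1 and control 7, 8 and 9. Notch2 in deep libraries shows all 3 scKO points, 37.4 to 40.2 CPM, under both controls, while Dll1, Hes1 and Adam17 sit far higher in deep than in shallow libraries of either group.

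Notch2, a receptor (ENSMUSG00000027878; plus strand of chromosome 3, 98013527 to 98150361 in GRCm38), was the member that fell. Its level was 40.2, 38.2 and 37.4 CPM in deep scKO libraries 6, 7 and 9, against 56.2 and 52.1 CPM in deep controls 1 and 2. The groups did not overlap, which was so for 22.4% of all genes in this direction in the deep libraries. The log2 fold change was -0.48 (standard error 0.12; edgeR adjusted p = 0.0152). In bulk RNA, fewer cells of a type and less RNA per cell cannot be told apart. The call was lost without control 1 (log2 fold change -0.44, edgeR adjusted p = 0.0731) and without scKO 7 (-0.48, edgeR adjusted p = 0.0668). In shallow libraries Notch2 ranged from 12.1 to 23.4 CPM in scKO (median 13.9, n = 6) and from 8.86 to 21.8 CPM in control (median 17.0, n = 7), so the groups overlapped. Of all genes in the shallow libraries, groups without overlap were found in 0.203% with scKO higher and in 0.101% with scKO lower. The shallow log2 fold change was -0.02 (standard error 0.27; edgeR adjusted p = 0.993), from 7 to 16 counts per scKO library and 4 to 17 per control library. The change did not differ detectably between depth classes (difference -0.46, standard error 0.32; edgeR adjusted p = 0.942).

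Notch3 (ENSMUSG00000038146; minus strand of chromosome 17, 32120820 to 32166852) was the receptor with the most counts in every library. In shallow libraries it ranged from 210.3 to 340.9 CPM in scKO (median 236.4, n = 6) and from 133.5 to 253.7 CPM in control (median 195.9, n = 7). All 6 scKO libraries lay above the control mean and 2 lay above every control, so the groups overlapped. The log2 fold change was 0.40 (standard error 0.17; unadjusted p = 0.0301, edgeR adjusted p = 0.800). Leaving out scKO 1 and control 7, 8 and 9 gave 0.47 (edgeR adjusted p = 0.492). In deep libraries Notch3 stood at 125.6, 111.4 and 107.7 CPM in scKO 6, 7 and 9, against 79.3 and 126.7 CPM in control 1 and 2. The 2 controls differed from each other by more than the 3 scKO libraries did. The deep value of 0.14 (standard error 0.18; edgeR adjusted p = 0.653) depended on the control used. It was 0.53 without control 2 (edgeR adjusted p = 0.0178) and -0.15 without control 1 (edgeR adjusted p = 0.492). Over all 18 libraries with the depth class the log2 fold change was 0.34 (standard error 0.13; edgeR adjusted p = 0.286).

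Notch1 (ENSMUSG00000026923; minus strand of chromosome 2, 26457903 to 26516663), a receptor known from satellite cell activation, was scarce in shallow libraries and did not pass the count filter there. It held 3 to 14 counts in shallow scKO libraries and 2 to 14 in shallow controls, which is 4.85 to 20.9 CPM in scKO and 4.43 to 16.5 CPM in control. In the deep libraries its level was 34.4, 25.4 and 24.7 CPM in scKO 6, 7 and 9, against 28.2 and 35.8 CPM in control 1 and 2, with overlap (log2 fold change -0.20, standard error 0.17; edgeR adjusted p = 0.506).

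The 250 bases before the RefSeq start sites (GRCm38.p6) are shown for Notch2, because it alone was called, for Notch3, because it dominated the receptor counts, and for Hes6, because it had the highest level per length of all members. Capitals mark 2 motifs searched on both strands: the E-box CANNTG, bound by factors of the MyoD family, and the N-box CACNAG, bound by Hes repressors; none of the marked matches overlap. The windows are chr3:98013288-98013537 on the plus strand for Notch2, and on the minus strand chr17:32166891-32167140 for Notch3 and chr1:91414039-91414288 for Hes6. Each is printed in the direction of transcription given by RefSeq. For Notch2 and Hes6, bases after the start were found in a GENCODE transcript of the gene in that direction. For Notch3 they were found in neither direction, so its direction rests on RefSeq alone.
Notch2: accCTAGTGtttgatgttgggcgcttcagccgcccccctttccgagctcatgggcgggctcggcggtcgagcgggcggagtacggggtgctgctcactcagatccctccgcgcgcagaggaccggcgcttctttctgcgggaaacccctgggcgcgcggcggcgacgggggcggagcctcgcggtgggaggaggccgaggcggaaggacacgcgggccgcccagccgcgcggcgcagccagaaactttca
Notch3: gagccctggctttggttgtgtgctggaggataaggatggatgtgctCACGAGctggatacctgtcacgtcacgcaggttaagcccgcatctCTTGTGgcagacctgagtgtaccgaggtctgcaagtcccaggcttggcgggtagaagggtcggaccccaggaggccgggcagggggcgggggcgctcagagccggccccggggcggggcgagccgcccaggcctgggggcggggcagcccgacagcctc
Hes6: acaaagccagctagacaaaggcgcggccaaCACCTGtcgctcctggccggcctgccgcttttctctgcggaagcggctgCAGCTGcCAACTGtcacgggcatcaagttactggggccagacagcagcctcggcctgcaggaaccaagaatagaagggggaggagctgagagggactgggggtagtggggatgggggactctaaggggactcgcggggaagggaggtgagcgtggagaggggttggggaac
The Notch2 window held 1 N-box and the Notch3 window 2, with no E-box in either, while the Hes6 window shown held 3 E-boxes and no N-box. A second Hes6 window, at chr1:91413223-91413472 and not shown, held 1 E-box and 1 N-box. An N-box was present in 36.7% and an E-box in 66.2% of all 32851 windows of this length. The letters TGGGAA, the core of the Rbpj motif, were in 0 of the 10 windows found for 8 members and in 21.6% of all windows. Hes1 and Heyl had no window. A match is a run of letters and does not show binding.

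**Figure D2:**
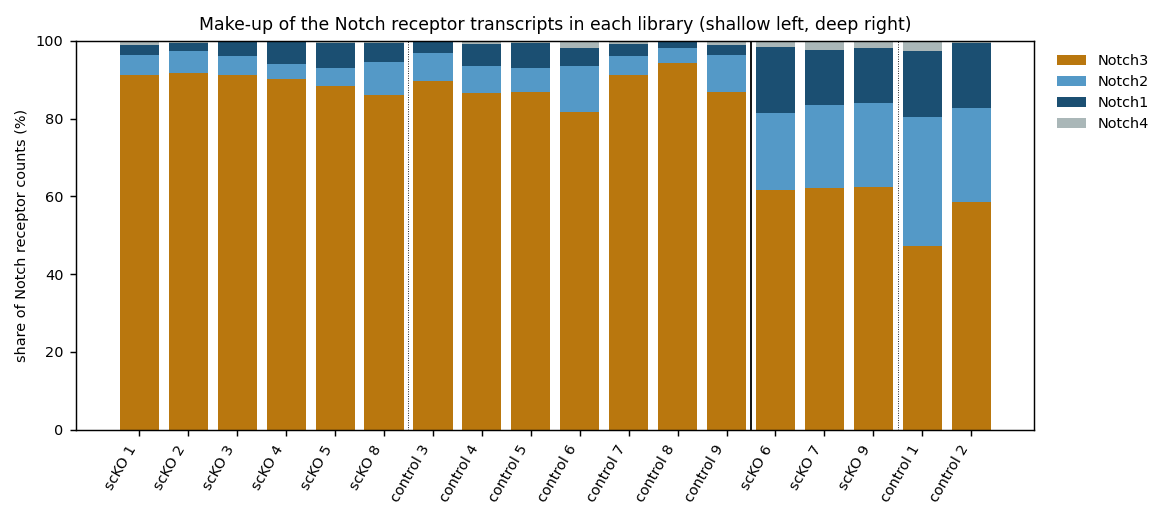
Share of each receptor in the summed counts of Notch1 to Notch4, as a percentage, for every library, with the 13 shallow libraries left of the solid line and the 5 deep ones right of it. Notch3 makes up 81.7% to 94.3% of receptor counts in shallow libraries and 47.1% to 62.3% in deep ones, and the smallest deep share is that of control 1.

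Because all receptors of a library share its depth, their shares need no scaling. Notch3 took 86.1% to 91.7% of receptor counts in shallow scKO libraries (median 90.6, n = 6) and 81.7% to 94.3% in shallow controls (median 86.8, n = 7). The exact binomial 95% interval was 80.3% to 90.7% for the lowest shallow scKO library, and covers counting error only. In the deep libraries Notch3 took 61.7%, 62.2% and 62.3% in scKO 6, 7 and 9, against 47.1% and 58.6% in control 1 and 2. Groups overlapped in the shallow class, and in the deep class each scKO share lay above both controls. The deep Notch3 level itself overlapped between groups, and Notch2, part of the same sum, was lower in deep scKO. For levels of single genes, deep groups without overlap were found in 23.1% of all genes with scKO higher and 22.4% with scKO lower. Notch4, the receptor known from endothelial cells, held 0 to 2 counts in shallow libraries of either group and 9 to 24 in deep ones.

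Among the canonical ligands Dll1, Dll3, Dll4, Jag1 and Jag2, Jag2 carried most counts in shallow libraries. Jag2 (ENSMUSG00000002799; minus strand of chromosome 12, 112907819 to 112929776) ranged from 41.9 to 64.5 CPM in shallow scKO libraries (median 55.0, n = 6) and from 24.5 to 56.6 CPM in shallow controls (median 40.4, n = 7). All 6 scKO values exceeded the control mean and 3 exceeded every control, and the groups overlapped. The log2 fold change was 0.40 (standard error 0.20; unadjusted p = 0.0548, edgeR adjusted p = 0.822). Deep libraries showed 46.4, 39.9 and 34.7 CPM in scKO 6, 7 and 9 and 31.6 and 47.6 CPM in control 1 and 2, with a log2 fold change of 0.01 (standard error 0.18; edgeR adjusted p = 0.979). The scKO values lay between the 2 controls.

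Dll1 (ENSMUSG00000014773; minus strand of chromosome 17, 15367354 to 15376872), a Delta-like ligand that activates Notch in regenerating muscle, had 38.1, 40.5 and 32.1 CPM in deep scKO 6, 7 and 9, against 45.6 and 45.8 CPM in deep control 1 and 2. All 3 scKO values lay under both controls. With a log2 fold change of -0.31 (standard error 0.13; unadjusted p = 0.0392), Dll1 did not pass after adjustment (edgeR adjusted p = 0.146). Jag1 (ENSMUSG00000027276; minus strand of chromosome 2, 137081456 to 137116644), a ligand also known from endothelium, had higher values in scKO in the same libraries, with 6.53, 8.58 and 9.49 CPM in scKO 6, 7 and 9 against 5.79 and 5.86 CPM in control 1 and 2. Its log2 fold change was 0.49 (standard error 0.26; edgeR adjusted p = 0.225), from 24 to 51 counts per library. Groups that do not overlap were common in deep libraries, with 23.1% of all genes higher and 22.4% lower in scKO. In shallow libraries Dll1 had 1 to 5 counts in scKO and 2 to 7 in control, and Jag1 0 to 2 in scKO and 0 to 3 in control, so neither passed the count filter and a change was not detectable at this depth. Jag1 was at 0 in scKO 5 and in control 7 and 9, which allows a level of up to 5.19 CPM in scKO 5, and of up to 4.94 and 8.16 CPM in those controls.

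Jag2 made up 84.8% to 93.9% of the summed counts of Dll1, Dll3, Dll4, Jag1 and Jag2 in shallow scKO libraries (median 89.1, n = 6), against 71.4% to 88% in shallow controls (median 83.8, n = 7). In deep libraries it made up 50.9%, 44.6% and 45.0% in scKO 6, 7 and 9 and 37.9% and 47.7% in control 1 and 2. Dll3 and Dll4 were nearly absent, with at most 3 counts in any library.

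Hes1 (ENSMUSG00000022528; plus strand of chromosome 16, 30064384 to 30067796), a repressor that answers directly to Notch, passed the threshold in no comparison. Its shallow level was 27.3 to 58.6 CPM in scKO (median 45.7, n = 6) and 24.7 to 48.7 CPM in control (median 32.9, n = 7). The log2 fold change was 0.37 (standard error 0.21; unadjusted p = 0.0901, edgeR adjusted p = 0.822), and 5 of 6 scKO libraries lay above the control mean. In the deep class Hes1 was at 177.3, 192.7 and 180.4 CPM in scKO 6, 7 and 9, against 177.7 and 163.2 CPM in control 1 and 2 (log2 fold change 0.11, standard error 0.09; edgeR adjusted p = 0.47). The scKO 6 value lay inside the control range.

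Heyl (ENSMUSG00000032744; plus strand of chromosome 4, 123233556 to 123249875), a Hey family repressor that is a known Notch target in satellite cells, had positive values in both classes. It ranged from 32.3 to 55.2 CPM in shallow scKO libraries (median 46.4, n = 6) and from 21.0 to 45.7 CPM in shallow controls (median 40.8, n = 7), with 4 scKO libraries above every control. The shallow log2 fold change was 0.24 (standard error 0.20; edgeR adjusted p = 0.844). In the deep libraries Heyl had 67.6, 41.9 and 39.7 CPM in scKO 6, 7 and 9, against 34.2 and 42.7 CPM in control 1 and 2. Only scKO 6 exceeded both controls, and the deep log2 fold change of 0.36 (standard error 0.24; edgeR adjusted p = 0.383) was 0.08 to 0.53 when single libraries were left out.

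Hes6 (ENSMUSG00000067071; minus strand of chromosome 1, 91411483 to 91414038), which opposes Hes1 and promotes differentiation, was the most abundant member, with 486 to 962 counts in shallow scKO and 458 to 827 in shallow control libraries. Its shallow level ranged from 785.5 to 1314 CPM in scKO (median 950.3, n = 6) and from 781.2 to 1362 CPM in control (median 979.6, n = 7), a log2 fold change of -0.11 (standard error 0.16; edgeR adjusted p = 0.908). The highest 4 values were those of scKO 1 and control 7, 8 and 9, at 1246 to 1362 CPM, against 781.2 to 979.6 CPM in the other 9 shallow libraries. Without these 4 the log2 fold change was 0.04 (edgeR adjusted p = 0.954). In deep libraries Hes6 reached 3291, 3572 and 3503 counts in scKO 6, 7 and 9 and 2930 and 3266 in control 1 and 2, which is 71.5% to 87.2% of the highest count in the table. That highest count equals the number of different sequences of 6 bases, though the UMI length is not stated in the labels. The deep level was 596.5, 601.0 and 665.1 CPM in scKO 6, 7 and 9, against 706.3 and 531.9 CPM in control 1 and 2. The deep log2 fold change was 0.01 (standard error 0.14; edgeR adjusted p = 0.986), and counts this near to the highest limit it. With all counts corrected for UMI collisions on the assumption of UMIs of 6 bases, it was 0.24 (edgeR adjusted p = 0.193).

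Adam17 (ENSMUSG00000052593; minus strand of chromosome 12, 21323509 to 21373632), a membrane protease able to make the outer cut in Notch, had nearly equal levels in deep libraries of both groups. They were 94.1, 98.1 and 95.9 CPM in scKO 6, 7 and 9, against 97.4 and 94.0 CPM in control 1 and 2. The log2 fold change was 0.01 (standard error 0.09; edgeR adjusted p = 0.977), with an approximate 95% interval from -0.18 to 0.19. In shallow libraries Adam17 ranged from 30.0 to 65.8 CPM in scKO (median 38.8, n = 6) and from 18.5 to 43.5 CPM in control (median 31.3, n = 7). The groups overlapped, with 5 of 6 scKO libraries above the control mean and 1, scKO 4, above every control. The shallow log2 fold change was 0.42 (standard error 0.23; unadjusted p = 0.0844, edgeR adjusted p = 0.822).

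**Figure D3:**
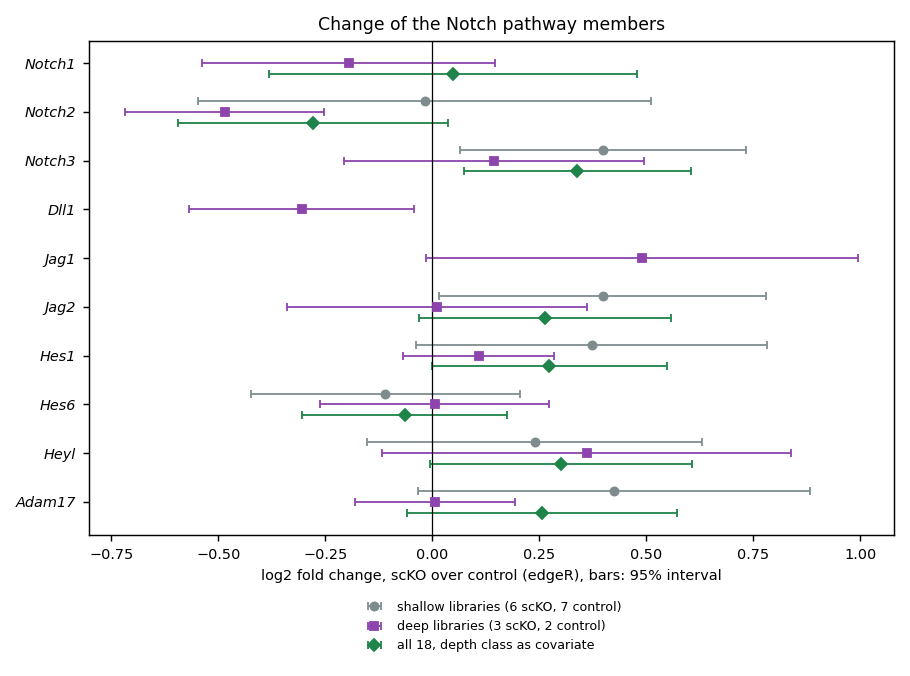
Log2 fold change of scKO over control for each member, in the shallow libraries, the deep libraries and all 18 libraries with the depth class. Bars show an approximate 95% interval, narrower than the edgeR test implies. Members without a point did not pass the count filter there. Notch2 in deep libraries, at -0.48, is the value that passed the adjusted threshold.

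Levels of different members were compared per kilobase of annotated exon (GENCODE M21), with the limit that no label tells where in a transcript reads began. In shallow scKO libraries the order was Hes6 (543.5 CPM per kilobase), Notch3 (31.6), Hes1 (22.1), Heyl (8.65), Jag2 (7.76), Adam17 (5.73), Notch2 (1.41), Dll1 (1.09), Notch1 (0.869) and Jag1 (0.284). Shallow controls had the same order, with Hes6 at 587.2 CPM per kilobase, Notch3 at 24.0 ± 5.02, Hes1 at 17.0 ± 4.01, Heyl at 7.32 ± 1.69, Jag2 at 5.82 ± 1.59 and Adam17 at 4.22 ± 1.24 (SD, n = 7). The ranges over libraries overlapped for neighbours from Notch3 to Hes1, from Heyl to Adam17 and among the last 4. By these ranges Hes6 lay above all others and Hes1 above Heyl in both shallow groups. Ranges over libraries do not give the order of genes inside a single library. In deep libraries Hes6 again came first and Hes1 came second, at 90.1 ± 3.99 CPM per kilobase in scKO (SD, n = 3) and 83.7 ± 5.03 in control (SD, n = 2), and Notch3 and Adam17 followed with overlapping values.

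Several members had levels that did not overlap between the depth classes. On totals corrected for UMI collisions, Dll1 had 22.4 to 33.9 CPM in the 5 deep libraries and 1.23 to 7.01 CPM in the 13 shallow ones, and Hes1 had 133.8 to 158.3 CPM in the deep and 18.9 to 49.4 CPM in the shallow ones. Notch3 was lower in deep libraries, with 57.5 to 100.5 CPM in deep and 118.1 to 285.3 CPM in shallow libraries. Hes6, lower in deep libraries before the correction, overlapped after it, with 761.3 to 1027 CPM in deep and 718.0 to 1162 CPM in shallow libraries. Depth class is not a group of the study, and no cause of the difference was tested.

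Beyond these 10, 68 further genes of the pathway were examined. In the deep libraries 58 were tested and 8 were called (5 higher and 3 lower in scKO), or 13.8%, beside 14.3% of all genes. Their median log2 fold change was -0.01, with 28 positive and 30 negative. In the shallow libraries 37 were tested and edgeR called 0, with 1 at an unadjusted p under 0.05. That was Crebbp, a histone acetyltransferase of the nuclear complex (log2 fold change -0.72, standard error 0.22; edgeR adjusted p = 0.676). With the depth class 40 were tested and edgeR called 0. The smallest unadjusted p-values there belonged to Crebbp (log2 fold change -0.47, edgeR adjusted p = 0.225), Dlk2 (-0.48, edgeR adjusted p = 0.262) and Tle4, a corepressor (0.63, edgeR adjusted p = 0.264).

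Among genes acting at the receptor and ligand, Neurl1a, a ubiquitin ligase of Notch ligands, rose in deep scKO libraries. It had 235.1, 250.9 and 252.7 CPM in scKO 6, 7 and 9, against 149.0 and 140.7 CPM in control 1 and 2 (log2 fold change 0.77, standard error 0.09; edgeR adjusted p = 0.000287). The groups did not overlap, which was so for 23.1% of all genes in this direction in the deep libraries. In the shallow libraries the Neurl1a groups overlapped (log2 fold change -0.05, standard error 0.23, edgeR adjusted p = 0.971). The difference between its changes in the classes did not pass (0.82, unadjusted p = 0.0468, edgeR adjusted p = 0.805). Psen2, a catalytic subunit of gamma-secretase, also rose, with 96.1, 94.7 and 70.3 CPM in scKO 6, 7 and 9, against 52.6 and 48.5 CPM in control 1 and 2 (log2 fold change 0.79, standard error 0.14; edgeR adjusted p = 0.00305). The noncanonical ligand Dner rose, with 87.4, 106.2 and 88.3 CPM in deep scKO 6, 7 and 9 against 53.3 and 70.0 CPM in control 1 and 2 (log2 fold change 0.60, edgeR adjusted p = 0.0104). Dlk2, a ligand-like protein, fell, with 29.9, 31.8 and 36.5 CPM in deep scKO 6, 7 and 9 against 47.2 and 53.1 CPM in control 1 and 2 (log2 fold change -0.62, edgeR adjusted p = 0.00759). None of the 4 passed in the shallow libraries, where the value was of opposite sign for Dner (log2 fold change -0.33, edgeR adjusted p = 0.824). With the depth class the value for Dner was -0.01, and the difference between its changes in the classes was 0.94 (unadjusted p = 0.0210, edgeR adjusted p = 0.703). The ligand Dlk1 had 11.3 to 13.6 CPM in deep scKO and 9.28 to 11.3 CPM in deep control libraries (log2 fold change 0.26, edgeR adjusted p = 0.447). In shallow libraries Dlk1 held 0 to 4 counts in scKO and 0 to 13 in control.

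In the nucleus, the acetyltransferase Kat2a fell (log2 fold change -0.34, standard error 0.10; edgeR adjusted p = 0.0467) and so did Spen, a corepressor that binds Rbpj (-0.40, standard error 0.11; edgeR adjusted p = 0.0337), both in deep libraries. Rbpj itself had values of 0.13 in deep (standard error 0.13; edgeR adjusted p = 0.550) and -0.26 in shallow libraries (standard error 0.19; edgeR adjusted p = 0.824). Another of the lists held 7 satellite cell genes as candidates for Notch-bound enhancers, and binding was not tested here. In deep libraries 6 of them were tested (4 positive, 2 negative), and 2 (33.3%) were called, beside 14.3% of all genes. These were the collagen genes Col6a1 and Col6a2, which rose. The other values were -0.28 for Pax7, -0.17 for Col5a1, 0.15 for Megf10 and 0.35 for Col5a3, while Calcr had 0 counts. Col6a1 had 22.1, 31.6 and 36.6 CPM in scKO 6, 7 and 9, against 13.02 and 10.9 CPM in control 1 and 2 (log2 fold change 1.34, standard error 0.22; edgeR adjusted p = 0.00216). Col6a2 had 8.16, 11.6 and 19.0 CPM in scKO 6, 7 and 9, against 5.30 and 3.75 CPM in control 1 and 2 (1.54, standard error 0.38; edgeR adjusted p = 0.0232). In shallow libraries Col6a1 had a value of -0.63 (standard error 0.35; edgeR adjusted p = 0.822), and the difference between the classes did not pass (1.96, standard error 0.46; edgeR adjusted p = 0.388).

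Of the other effectors, Hey1, a Hey family repressor, had 37.3, 49.97 and 34.7 CPM in deep scKO 6, 7 and 9, against 26.5 and 30.0 CPM in control 1 and 2 (log2 fold change 0.52, standard error 0.17; edgeR adjusted p = 0.0541). The groups did not overlap, which was so for 23.1% of all genes in this direction in the deep libraries, and the value missed the threshold. In shallow libraries Hey1 held 5 to 13 counts in scKO and 5 to 18 in control (log2 fold change -0.40, standard error 0.37; edgeR adjusted p = 0.854). Hes2, Hes3 and Hes5 had 0 counts in all libraries, and Hey2 had at most 3. Hes7 had 13 to 22 counts in deep scKO and 12 to 18 in deep control libraries (log2 fold change 0.03, edgeR adjusted p = 0.968). Shallow libraries held 0 to 6 counts of Hes7 in scKO and 0 to 2 in control.

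**Figure D4:**
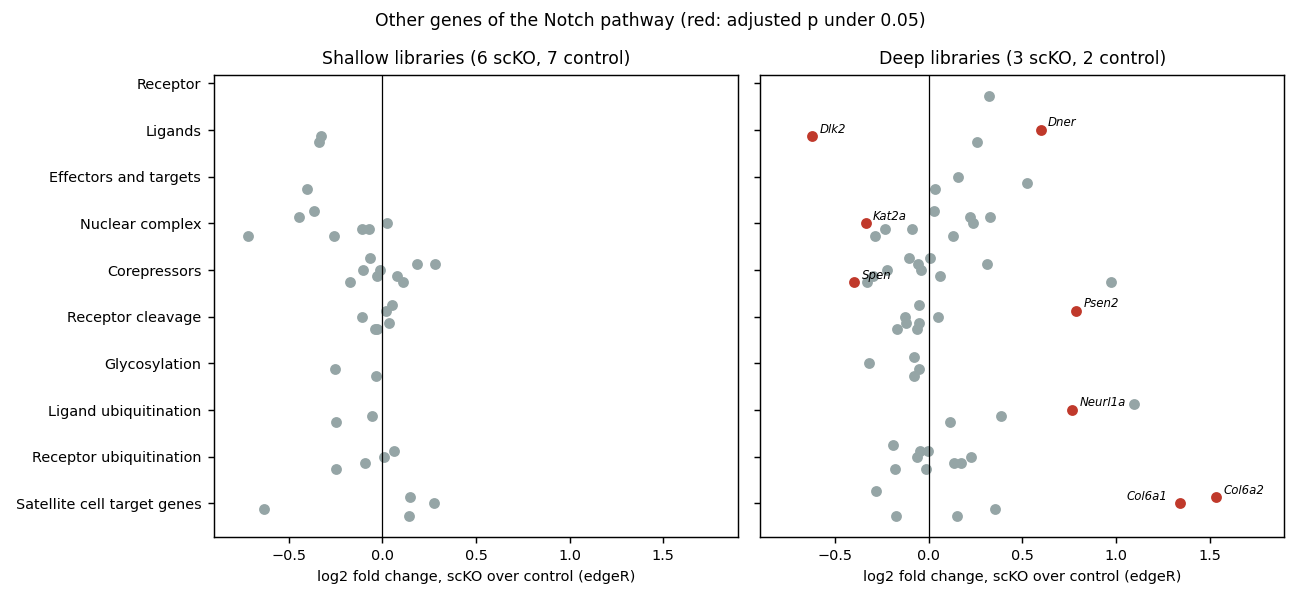
Log2 fold change of scKO over control for the other pathway genes, grouped by role, in shallow (left) and deep (right) libraries; red points passed an adjusted p of 0.05 and are named. No point is red in the shallow panel, and the 8 red points of the deep panel run from -0.62 for Dlk2 to 1.54 for Col6a2.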

How the data were processed

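The deposited table holds the authors' raw UMI counts per gene for 18 libraries. HISAT2 and HTSeq are named, per the submitters' processing notes, without versions or settings, and Rnor_6.0, a rat build, is listed there although the identifiers are mouse Ensembl genes. The library kit, strand use and UMI length are not given in the sources used here. Symbols came from GENCODE M21 (GRCm38) and matched 50376 of 50689 features. The 313 others, with 0.041% of counts, were kept.

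Libraries were split at 2000000 counts. Within each class, and over all 18 libraries with the class as a covariate, counts were tested in R 4.3.3 with edgeR 4.0.16 (filterByExpr, TMM scaling, robust quasi-likelihood test, Benjamini-Hochberg adjustment over all genes tested, threshold 0.05). An interaction term tested differences between classes. Only the edgeR tests within each class, with the class as a covariate and of the interaction were tried on simulated counts with known changes. CPM used TMM-scaled totals within a class, and 3 counts was the limit that a count of 0 allows. None of the 40 pairs of libraries of 1 group and 1 depth class agreed within sampling noise (lowest chi-square per degree of freedom 2.05). Binomial intervals of shares cover counting error only. The standard error of an edgeR log2 fold change was derived from that value and its F statistic. The 95% intervals of log2 fold changes used the normal factor 1.96, so they are approximate and narrower than the F test implies. For shallow Jag2 the interval ran from 0.016 to 0.78 and excluded no change, while the edgeR unadjusted p was 0.0548.

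Alternatives were median-of-ratios scaling, other count filters, DESeq2 1.42.0, limma-voom (limma 3.58.1), correction for UMI collisions, leaving out single libraries, leaving out the 4 libraries that stood apart, a replicate block and the group alone. All 10 members are named. Other pathway genes are named when called in any comparison, when among the 3 smallest unadjusted p-values under 0.05 in each direction, or as receptors, ligands and Hes or Hey genes. The members and lists were chosen with earlier results of these data known.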

Additional observations from a re-analysis of the deposited data

Results flagged for a closer look

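Of 20 sets of shallow libraries of 1 group, 1 for each member and group, 3 held a library far from the rest by Dixon's criterion, and chance alone picks about 1 in 20. Notch2 stood at 23.4 CPM in scKO 8, with the nearest of the other 5 shallow scKO libraries at 15.6 CPM. Hes6 stood at 1314 CPM in scKO 1, with the nearest at 971.8 CPM, and scKO 1 is among the 4 libraries that stood apart. Adam17 stood at 65.8 CPM in scKO 4, with the nearest at 41.6 CPM.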

How the results depend on the processing

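The deep Notch2 value lay between -0.51 and -0.48 under the 6 alternatives that kept all libraries (adjusted p 0.00842 to 0.0422), and between -0.54 and -0.44 with single libraries left out, which gave 0 to 2 called members. Leaving out 1 of the 2 deep controls assumes that the other varies like the scKO libraries. Of the member values under alternatives, 642 kept direction and side of the threshold, 26 changed sign, 2 lost and 1 gained a call.

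Genes called in shallow libraries numbered 3 (13 without a filter, 6 by DESeq2, 0 without the 4 libraries apart, 1 to 5 with single libraries left out). With the depth class they numbered 52 (359 without a filter, 22 with a filter of 10 counts, 390 by DESeq2, 101 by limma-voom, 617 without the 4 libraries, 1 for the group alone, 11 to 216 with single libraries left out, the lowest without control 1 and the highest without scKO 1). In deep libraries 1884 became 996 to 1810, the lowest without scKO 7. Differences between classes numbered 0 (30 without a filter, 60 by DESeq2, 0 with any single library left out). The causes were not tested.

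Signs turned as follows. Shallow Notch2 was 0.0123 without a filter, 0.00567 by limma-voom, and -0.17 to 0.0506 with single libraries left out. Without the 4 libraries, Hes6 was 0.0373 in shallow libraries, 0.0307 with the depth class and -0.0226 for the difference between classes, and Notch1 was -0.0475 with the depth class. With single libraries left out, deep values ran from -0.15 to 0.53 for Notch3, -0.24 to 0.35 for Jag2, -0.19 to 0.22 for Hes6 and -0.0244 to 0.0252 for Adam17. They ran from -0.0399 to 0.23 for Notch1 with the depth class, and for the difference between classes from -0.53 to 0.14 for Notch3, -0.0789 to 0.34 for Hes6 and -0.15 to 0.30 for Heyl.

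The replicate numbers were taken as labels only, because not every pair of same-numbered libraries had deviations that correlated above 0.1. The values were 0.19, 0.18, 0.25 and -0.07 for numbers 3, 4, 5 and 8, the pairs inside the shallow class, and -0.01 to 0.14 for the others. With the number as a replicate block, 14 genes were called with the depth class, shallow Notch2 was 0.13 and shallow Hes6 was 0.00974. No paired analysis was possible in the deep libraries because the groups share no number there. Shallow counts of Notch1, Dll1 and Jag1 were too low for a test.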

Other observations

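For the 6 members with a mean of at least 20 counts in the 13 shallow libraries, the genes whose levels followed them most closely there were found by Pearson's r of log2 CPM after each group's mean was removed, among 6906 genes. The libraries share depth and composition, so r is a description. For Notch3 they were Rdh5 (r = 0.90, and 0.92 in the 9 libraries without those that stood apart) and Bgn (0.87 and 0.90). For Hes6 they were Cxxc5 (0.98 and 0.91) and Lbx1 (0.97 and 0.87). For Jag2 they were Mir22hg (0.87 and 0.83) and Edil3 (0.87 and 0.92). For Heyl they were Esf1 (0.92 and 0.96) and Thap1 (0.87 and 0.94), and for Adam17 Ttc4 (0.83 and 0.92) and Srsf10 (0.83 and 0.90). For Hes1 they were Tvp23b (0.86 and 0.74) and Sgcb (0.85 and 0.54), so both values were lower without the libraries apart.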
